A study of Mus musculus with 12 samples.

Results

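Early response genes, namely transcription factors of the EGR and AP-1 families and the phosphatase gene Dusp1, were followed in cultured mouse cumulus cells. These are the granulosa-derived cells around the oocyte. The set held 10 genes, Egr1, Egr2, Egr3, Fos, Fosl1, Fosl2, Jun, Junb, Atf3 and Dusp1, out of 19938 genes with a symbol of their own on 35399 probe set rows of an expression array. They were looked up by symbol in the platform annotation, and each had 1 probe set. All 10 were measured on all 12 arrays, and no filter on low values was applied. Values are log2 expression levels as deposited, so that a difference of 1 is a 2-fold change.

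Immediate early genes are switched on within minutes of a growth factor or hormone signal, without new protein synthesis, mainly through MAP kinases acting on serum response factor and its partners and through cAMP acting on CREB. Their transcripts are short-lived, and many of them are back near the starting level within a few hours. EGR proteins are zinc finger factors that bind GC-rich sites. FOS and JUN proteins pair through leucine zippers as AP-1, in which FOSL1 and FOSL2 are the slower FOS-related partners. ATF3 is a stress-induced relative, and DUSP1 is a phosphatase that switches MAP kinases off. In the ovary, the LH surge acts on the follicle through EGF-like ligands and cAMP, and EGR and AP-1 genes belong to its early response.

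Promoter sequences of RefSeq, build GRCm38.p6, were used for 7 of the 10 genes (all but Egr1, Egr3 and Fosl1), in 11 windows of the 250 bases before a transcription start, 5 of them of Egr2. The windows were searched on both strands for 6 motifs: the CArG box, where serum response factor binds, TGACGTCA and its inner part TGACG, where CREB and ATF proteins bind, TGANTCA for AP-1, GCGNGGGCG for EGR proteins, and TATAAA. A TGACGTCA was counted as a TGACG on each strand too. TGACG stood in a window of 5 of the 7 genes (Egr2, Fos, Junb, Atf3 and Dusp1). Counted by window it stood in 7 of the 11, and 17.8% of all 32851 windows of this length held it. Some of the windows of Egr2 overlap. A CArG box was in 4 of the 11 windows, all of Egr2 (1.47% of all windows). Dusp1 held the full TGACGTCA (1.55%), Fos a TATAAA (12.4%) and Fosl2 a GCGNGGGCG (4.7%), while TGANTCA (6.75%) was in none of the 11 windows. In the window of Jun none of the 6 motifs was found. Sequence further upstream was not searched, so that an absence holds for these windows only. The 4 windows below belong to those of the 7 genes with a window whose values differed most between groups or between arrays. Matches are in capitals, a CGTCA being TGACG on the other strand. A match describes the letters, not a site in use. For Egr2 the window at chr10:67537620-67537869 on the plus strand is shown, with the CArG box between 2 TGACG matches, starting 73 bases before the start site. For Fos it is chr12:85473640-85473889 (plus strand), for Dusp1 chr17:26508473-26508722 (minus strand) and for Atf3 chr1:191183334-191183583 (minus strand).
Egr2: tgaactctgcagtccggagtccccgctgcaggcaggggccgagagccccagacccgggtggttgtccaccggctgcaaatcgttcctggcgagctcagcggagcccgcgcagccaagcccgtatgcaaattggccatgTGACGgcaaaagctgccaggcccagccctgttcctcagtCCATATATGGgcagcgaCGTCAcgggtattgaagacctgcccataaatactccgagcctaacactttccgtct
Fos: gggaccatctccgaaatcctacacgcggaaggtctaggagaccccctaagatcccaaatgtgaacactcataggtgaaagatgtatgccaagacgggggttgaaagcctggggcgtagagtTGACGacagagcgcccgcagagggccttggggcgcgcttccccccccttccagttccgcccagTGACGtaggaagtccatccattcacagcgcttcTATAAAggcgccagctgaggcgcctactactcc
Dusp1: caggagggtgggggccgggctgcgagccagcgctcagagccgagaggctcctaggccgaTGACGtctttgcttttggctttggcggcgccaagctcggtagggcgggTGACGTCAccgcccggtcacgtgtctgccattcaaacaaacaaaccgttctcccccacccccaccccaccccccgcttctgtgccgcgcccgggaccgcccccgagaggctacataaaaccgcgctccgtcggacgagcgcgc
Atf3: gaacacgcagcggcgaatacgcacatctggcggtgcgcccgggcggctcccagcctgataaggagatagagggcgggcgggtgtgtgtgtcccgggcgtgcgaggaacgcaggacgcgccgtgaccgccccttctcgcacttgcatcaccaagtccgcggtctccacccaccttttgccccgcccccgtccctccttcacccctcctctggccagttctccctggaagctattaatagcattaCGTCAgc

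Cumulus cells were cultured for 8 h inside whole cumulus-oocyte complexes in 3 groups of 4 arrays. Control cultures received 0.125% (by volume) of control medium from 293H cells. FSH/EGF cultures received the same control medium together with 50 mIU/ml FSH plus 10 ng/ml EGF. The GDF9 group had 20 ng/ml of GDF9, an oocyte-secreted factor of the TGF-beta family, and its labels name no control medium, so that the medium may differ too wherever GDF9 is compared. All groups shared the source: female 129SV mice, 21 to 26 days old, primed with 5 IU of equine chorionic gonadotropin 44 h earlier. Complexes were collected with 1 micromolar cilostamide, a phosphodiesterase inhibitor that holds oocytes in meiotic arrest, and cultured 20 to a drop of 50 microlitres. Oocytes were pipetted off only after culture. Each array held RNA of 2 of the 8 separately extracted cultures of its condition, so that the tests measure the spread between such pools. There was 1 time point, and values soon after the start of treatment were not analysed here.

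Array medians ran from 5.41 to 5.53, and arrays of 1 group correlated at 0.971 to 0.995, with 0 identical pairs. The number of arrays limits the precision. Control array 1 had the lowest array weight, 0.269, against 0.485 to 2.04 for the others. On control array 4 the 15 measured oocyte markers averaged 6.10, against 5.02 to 5.21 on the other controls, 4.88 to 5.05 with GDF9 and 4.89 to 5.25 with FSH/EGF, where array 3 was highest. None of the markers was listed at 0, and 1 of the 15 fell with FSH/EGF against control (4 without control array 2). The labelled cell type was checked with 10 cumulus and granulosa markers, which averaged 8.53 to 8.73 on control arrays and 8.59 to 8.69 on GDF9 arrays. With FSH/EGF they averaged 6.86 to 7.04, and 8 of the 10 fell. Theca and stroma markers numbered 7 (1 rose and 3 fell), endothelial markers 7 (2 rose) and leukocyte markers 9 (1 rose). Of all rows, 16.5% rose and 12.5% fell. In such bulk samples, fewer cells of a type and less RNA per cell cannot be told apart, and the part of any of these markers in the results was not tested.

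After 8 h with FSH and EGF, the early response genes had moved in both directions relative to control cultures. Egr3, Fosl1, Egr2 and Dusp1 were higher, with Egr3 8.53-fold and Fosl1 4.55-fold above the control. Egr1 and Fos were lower, 1.66-fold and 2.17-fold. Fosl2, Jun, Junb and Atf3 did not pass the test. Thus 4 of 10 rose (16.5% of all rows did) and 2 fell (12.5% of all rows), at a limma adjusted p under 0.05. Together the 6 called genes stand against 29.0% of all rows, and 36.8% of all genes, called in either direction. The 10 genes were chosen with earlier results of these data known, so these shares are a description. The median difference of the 10 genes was 0.25, against -0.07 over all genes. The split of all calls depended on scaling: 57.0% of called rows were higher as deposited and 71.9% after the array medians were made equal.

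**Figure D1:**
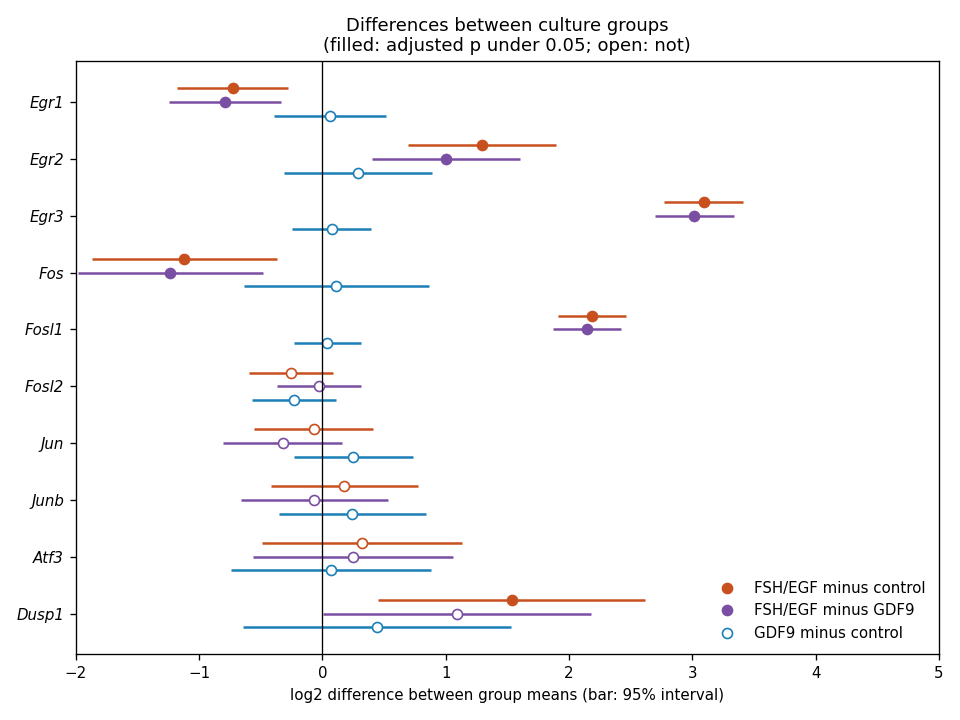
Log2 difference between group means (x axis) for each of the 10 genes, with 95% intervals from the linear model over 12 arrays; filled points have an adjusted p under 0.05. Egr3 and Fosl1 lie at 3.09 and 2.19 for FSH/EGF minus control, Egr1 and Fos at -0.73 and -1.12, and all intervals for GDF9 minus control cross 0.

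Among the EGR genes, Egr3, a zinc finger factor that Egr1 and other early factors can induce, was higher. Probe set 10416251 of Egr3 read 7.33, 6.79, 6.97 and 7.13 on control arrays 1 to 4, 7.08, 7.46, 6.78 and 7.21 with GDF9, and 10.10, 10.01, 10.12 and 10.37 with FSH/EGF. The FSH/EGF arrays lay far above all 8 others, which overlapped each other. The rise over control was 3.09 ± 0.15 (log2, SE, n = 4 and 4; limma adjusted p = 1.09e-08), and it ran from 3.003 to 3.186 when each array was left out in turn.

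Egr2, known for its part in myelination and hindbrain patterning, rose less. Its values (probe set 10363735) were 7.23, 7.08, 6.59 and 7.69 on control arrays 1 to 4, 7.98, 7.17, 6.69 and 7.91 with GDF9, and 8.62, 8.32, 8.36 and 8.46 with FSH/EGF. All FSH/EGF arrays were above all others, and they lay closer together (SD 0.13) than control (SD 0.45) or GDF9 arrays (SD 0.61). The rise of Egr2 over control was 1.30 ± 0.28 (SE; limma adjusted p = 0.00349), or 2.45-fold.

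Egr1, the founding member of the family, went the other way. It read 9.09, 9.08, 8.67 and 9.56 on control arrays (probe set 10454782), 9.43, 9.22, 8.57 and 9.42 with GDF9, and 8.29, 8.29, 8.26 and 8.65 with FSH/EGF. FSH/EGF array 4, the highest of its group at 8.65, was just under control array 3 at 8.67, so that these groups did not overlap, but it was above GDF9 array 3 at 8.57. Egr1 fell by 0.73 ± 0.21 against control (SE; limma adjusted p = 0.0199). The call of Egr1 was lost without control array 4 (-0.57, limma adjusted p = 0.0517), FSH/EGF array 1 (-0.70, 0.0516) or FSH/EGF array 3 (-0.69, 0.0533). Control array 4 also had the high oocyte markers, and their part was not tested. Without control array 4 and FSH/EGF array 3, the 2 with the highest oocyte markers of their groups, the difference of Egr1 was -0.53 (limma adjusted p = 0.111). For Egr1 these were also the highest control (9.56) and the lowest FSH/EGF array (8.26). Leaving them out thus shrinks the fall whatever their oocyte markers.

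**Figure D2:**
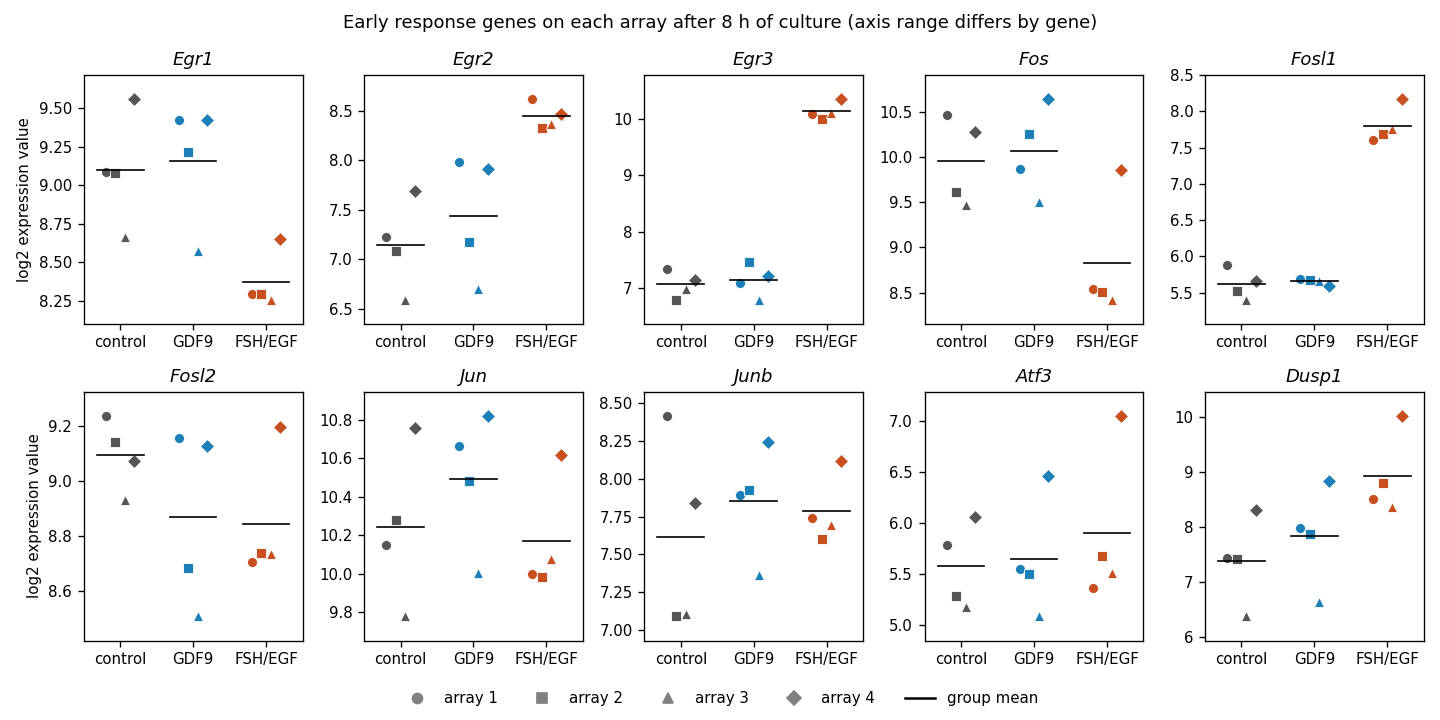
Log2 expression of each gene on every array (y axis), by culture group (x axis), 4 arrays per group, with the group mean as a bar; the marker shape gives the array number. For Egr3 and Fosl1 every FSH/EGF array lies above the other 8. Fos lies below all controls on 3 FSH/EGF arrays and Egr1 on all 4, and for both genes array 4 is the highest of the FSH/EGF group.

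In the FOS family, Fosl1 (FRA1), a partner of JUN proteins without a transactivation domain of its own, rose. Probe set 10460585 of Fosl1 read 5.88, 5.52, 5.40 and 5.66 on control arrays 1 to 4, 5.69, 5.67, 5.67 and 5.60 with GDF9, and 7.60, 7.69, 7.75 and 8.17 with FSH/EGF. Every FSH/EGF array was above every other array. The rise of Fosl1 was 2.19 ± 0.13 (SE; limma adjusted p = 5.36e-08), and 2.06 to 2.28 with each array left out in turn.

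Fos, the prototype early response gene, was lower with FSH/EGF on 3 of 4 arrays. Its values (probe set 10397346) were 10.46, 9.61, 9.47 and 10.27 on control arrays 1 to 4, 9.87, 10.26, 9.50 and 10.64 with GDF9, and 8.54, 8.51, 8.42 and 9.86 with FSH/EGF. FSH/EGF array 4 stood apart from the rest of its group and inside the range of both other groups. Fos fell by 1.12 ± 0.34 against control (SE; limma adjusted p = 0.0281). Without FSH/EGF array 4 the difference was -1.46 (limma adjusted p = 0.00246). The call of Fos was lost without control array 1 (-0.95, limma adjusted p = 0.0735), control array 4 (-1.01, 0.0655), FSH/EGF array 1 (-1.02, 0.0774), FSH/EGF array 2 (-1.01, 0.0737) or FSH/EGF array 3 (-0.98, 0.0813), and with all arrays but no moderation of the variances (0.0665). Without control array 4 and FSH/EGF array 3, which had high oocyte markers, the difference of Fos was -0.88 (limma adjusted p = 0.149). Here too the fall had to shrink whatever the markers. Control array 4 (10.27) was above its group mean for Fos, and FSH/EGF array 3 (8.42) was the lowest of its group.

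Fosl2 (FRA2) did not pass the test. It read 9.24, 9.14, 8.93 and 9.07 on control arrays (probe set 10520862), 9.16, 8.68, 8.51 and 9.13 with GDF9, and 8.71, 8.74, 8.73 and 9.20 with FSH/EGF. On 3 FSH/EGF arrays Fosl2 was below all controls, and on array 4 it was near the highest control. Its difference from control was -0.25 (95% interval -0.59 to 0.09; limma adjusted p = 0.246), and after renewed quantile normalization it passed as lower (-0.47, 0.0355).

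The JUN genes, whose products form homodimers or pair with FOS proteins, did not pass the test either. Jun (probe set 10514466) read 10.15, 10.28, 9.78 and 10.75 on control arrays 1 to 4, 10.66, 10.48, 10.00 and 10.82 with GDF9, and 10.00, 9.98, 10.08 and 10.62 with FSH/EGF. The 3 groups of Jun overlapped. Its FSH/EGF difference of -0.07 had a 95% interval of -0.55 to 0.41 (limma adjusted p = 0.834), and it changed sign without control array 4, at 0.10, and with equal array medians, at 0.0065. Junb, which often restrains JUN activity, read 8.42, 7.09, 7.11 and 7.84 on control arrays (probe set 10580282), 7.89, 7.93, 7.37 and 8.24 with GDF9, and 7.74, 7.60, 7.69 and 8.12 with FSH/EGF. All FSH/EGF and GDF9 values of Junb lay within the control range. The FSH/EGF difference of Junb was 0.18 (95% interval -0.42 to 0.77; limma adjusted p = 0.657). Without control arrays 1 and 4, the highest controls for Junb at 8.42 and 7.84, it passed as higher (0.69, limma adjusted p = 0.0351). The controls left in that setting, at 7.09 and 7.11, lay close together. Renewed quantile normalization turned the sign of the Junb difference (-0.037).

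Atf3, a bZIP repressor and stress gene, was low on most arrays and high on a few. Its values (probe set 10361091) were 5.78, 5.28, 5.18 and 6.06 on control arrays 1 to 4, 5.55, 5.50, 5.08 and 6.46 with GDF9, and 5.36, 5.68, 5.51 and 7.05 with FSH/EGF. Array 4 was the highest of each group for Atf3, and the groups overlapped. The difference of 0.32 (95% interval -0.49 to 1.14; limma adjusted p = 0.539) became -0.059 without FSH/EGF array 4.

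Dusp1, a phosphatase of MAP kinases that is itself an early response gene, read 7.44, 7.42, 6.38 and 8.30 on control arrays 1 to 4 (probe set 10449284), 7.97, 7.87, 6.64 and 8.84 with GDF9, and 8.50, 8.80, 8.36 and 10.02 with FSH/EGF. The lowest FSH/EGF array, at 8.36, was just above the highest control, at 8.30, and GDF9 array 4 was inside the FSH/EGF range. The rise of Dusp1 over control was 1.53 ± 0.50 (SE; 2.90-fold; limma adjusted p = 0.0360). It was not called without control array 1 (1.55, limma adjusted p = 0.0599), control array 2 (1.55, 0.0644), control array 3 (1.20, 0.105), FSH/EGF array 2 (1.57, 0.0627) or FSH/EGF array 4 (1.17, 0.102), nor after renewed quantile normalization (1.35, 0.0727) or without moderation of the variances (1.53, 0.0811).

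Arrays of the FSH/EGF group did not overlap with control arrays for 5 of the 10 genes, Egr1, Egr2, Egr3, Fosl1 and Dusp1, as for 33.2% of all rows.

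GDF9 moved none of the 10 genes past the threshold relative to control, and limma called 0.0% of all rows in this comparison. The GDF9 and control arrays overlapped for all 10 genes, and they did not overlap for 1.98% of all rows. No gene of the set had an unadjusted p under 0.05, against 1590 of all 35399 rows, and the smallest adjusted p over all rows was 0.847. The intervals show what could have been missed. For Fosl1 the difference was 0.04 with a 95% interval of -0.23 to 0.31, and for Egr3 it was 0.08 (-0.24 to 0.40). For Egr1 it was 0.06 (-0.39 to 0.51), for Fosl2 -0.23 (-0.57 to 0.11), for Jun 0.25 (-0.23 to 0.73) and for Junb 0.24 (-0.35 to 0.84). The intervals of Egr2, at 0.29 (-0.31 to 0.89), Fos, at 0.11 (-0.63 to 0.86), and Atf3, at 0.07 (-0.74 to 0.88), were wider. Dusp1, at 0.44 (-0.64 to 1.53), had the widest, so that a 2-fold rise of this gene lies inside it. The median of the 10 differences was 0.09, against -0.02 over all genes.

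Cells given FSH/EGF differed from cells given GDF9 at Egr3, Fosl1 and Egr2, which were higher, and at Egr1 and Fos, which were lower. These are 3 genes higher and 2 lower of 10, against 13.6% and 8.96% of all rows. Of all genes, 29.1% were called in either direction. The median of the 10 genes was 0.11, against -0.03 over all genes. Groups did not overlap for 3 of the 10, as for 26.8% of all rows. Egr3 was 3.02 ± 0.15 higher (SE; limma adjusted p = 1.37e-08), Fosl1 2.15 ± 0.13 higher (6.64e-08) and Egr2 1.00 ± 0.28 higher (0.0190), and for these no FSH/EGF array overlapped with a GDF9 array. Egr1 fell by 0.79 ± 0.21 (limma adjusted p = 0.0150) and Fos fell by 1.23 ± 0.34 (0.0205), with overlapping arrays. Egr2 was not called without GDF9 array 2 (0.92, limma adjusted p = 0.0568), GDF9 array 3 (0.76, 0.0503) or FSH/EGF array 1 (0.94, 0.0543). Fos was not called without GDF9 array 2 (-1.17, 0.0552), GDF9 array 4 (-1.04, 0.0634), FSH/EGF array 1 (-1.14, 0.0608), FSH/EGF array 2 (-1.13, 0.0603) or FSH/EGF array 3 (-1.10, 0.0645). Dusp1 was 1.09 higher (95% interval 0.01 to 2.18) and did not pass (limma adjusted p = 0.151), and Jun was 0.32 ± 0.22 below (log2 difference -0.32; 0.360). Without moderation of the variances, Egr2 (0.0534) and Fos (0.0579) were not called. This comparison shares its FSH/EGF arrays with FSH/EGF minus control.

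Within a culture group, these genes varied between arrays more than most genes did. The spread was taken as the SD of a gene's log2 values around its group means, pooled over the 3 groups. It was 0.818 for Dusp1, 0.610 for Atf3, 0.561 for Fos, 0.447 for Egr2 and 0.444 for Junb, against a median of 0.141 and a 95th percentile of 0.272 over 19938 genes. Dusp1 ranked 9 among all genes, Atf3 22 and Fos 32. Each gene was also placed among genes of like level, in 10 classes by mean: 7 of the 10 were above the 90th percentile of their class and 5 above the 99th. The exceptions were Fosl2 (SD 0.245), Egr3 (0.228) and Fosl1 (0.189), at percentiles 89.07, 79.59 and 61.82. Egr3 and Fosl1, with the largest rises, were thus the genes with the least pooled spread. For Fosl1 the SD differed by group: 0.205 in control, 0.040 with GDF9 and 0.252 with FSH/EGF. On FSH/EGF arrays Egr1, Egr2, Egr3, Fosl2 and Junb had a smaller SD than Fosl1, and Fos, Jun, Atf3 and Dusp1 a larger one.

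**Figure D3:**
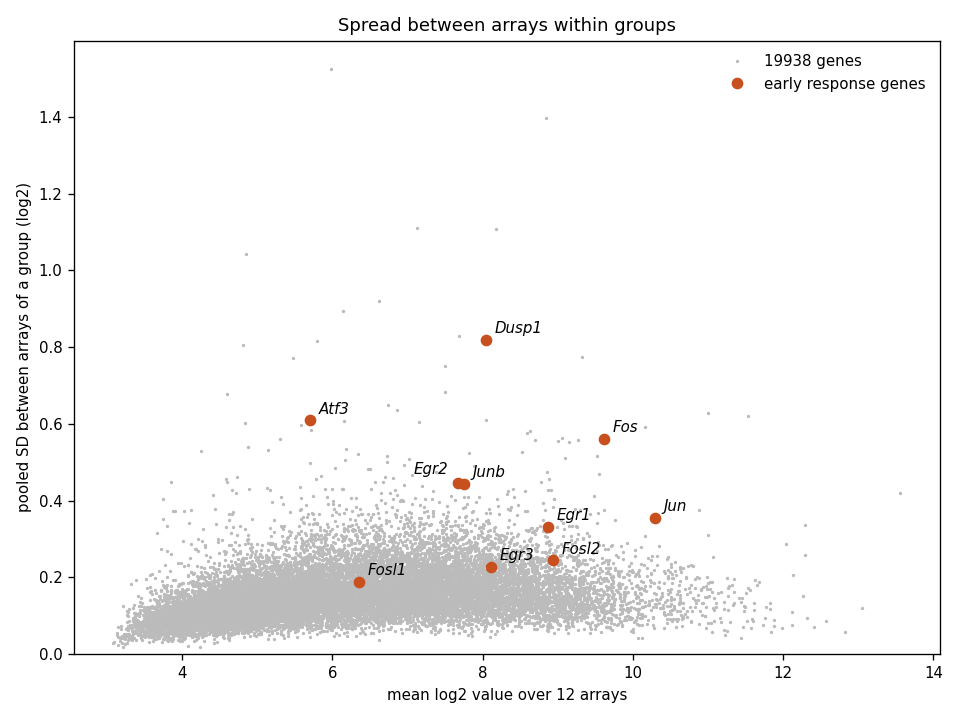
Pooled SD between arrays of a group (y axis, log2) against the mean log2 value over 12 arrays (x axis) for 19938 genes (grey) and the 10 early response genes (coloured). Dusp1, Atf3 and Fos, at 0.818, 0.610 and 0.561, lie well above the bulk of genes, and Fosl1 lies inside it at 0.189.

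The deviations fell on the same arrays for most of the 10 genes. FSH/EGF array 4 was above its group mean for all 10, by 0.53 on average, and was the highest of its group for 9. Egr2 was the exception, highest on FSH/EGF array 1. The other FSH/EGF arrays averaged -0.18, -0.16 and -0.19. GDF9 array 3 was the lowest of its group for 9 genes, all but Fosl1, and averaged -0.53. Control array 3 was the lowest for 8 genes, all but Egr3 and Junb, and averaged -0.43. Control array 4 and control array 1 were each the highest for 5 genes, averaging 0.36 and 0.22, and GDF9 array 4 was the highest for 5 genes and averaged 0.41.

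**Figure D4:**
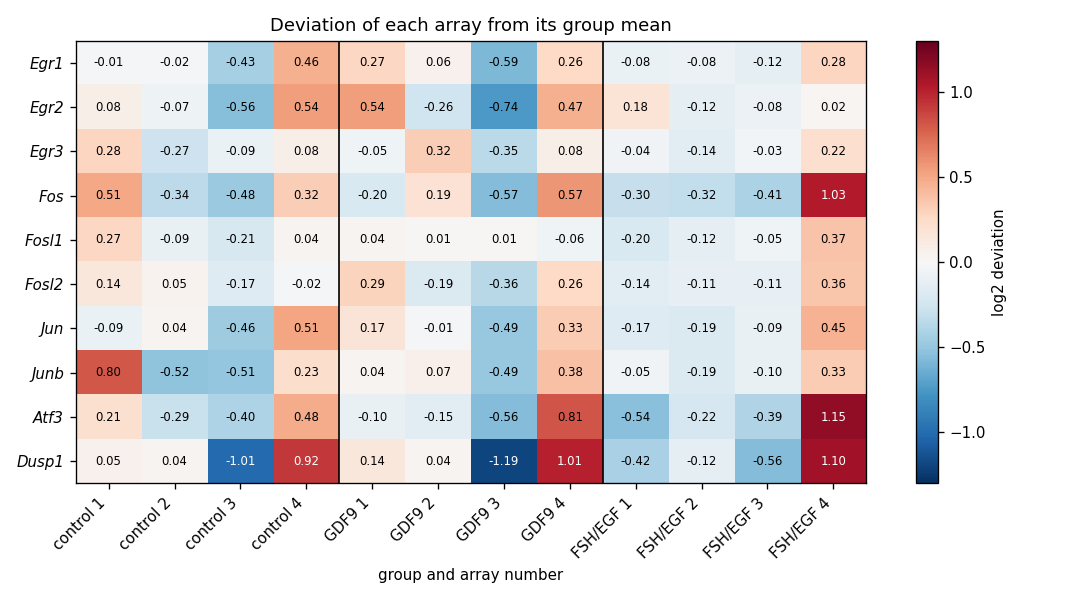
Deviation of each gene from its group mean (log2) on each of the 12 arrays, 4 per group. FSH/EGF array 4 is above the group mean for all 10 genes, control array 3 is below for all 10, and GDF9 array 3 is below for 9.

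Marker lists did not single out the same arrays throughout. The oocyte markers, high on control array 4, averaged 4.97 on GDF9 array 4 and 4.96 on FSH/EGF array 4, within the range of the other arrays of those groups. A list of 11 heat shock and stress genes averaged 8.50 on FSH/EGF array 4, against 8.29 to 8.54 on the rest of that group, and 7.80 on control array 3, the lowest control. The part of handling, culture or RNA quality in these deviations was not tested.

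Over the 12 arrays, with group means removed, the deviations of the 10 genes ran together in pairs. All 45 pairs had a Pearson correlation above 0, from 0.181 for Egr2 with Fosl1 to 0.960 for Egr1 with Jun, and 38 were above 0.5. The mean over pairs was 0.679, against 0.00634 over all pairs of the 19938 genes. The second value covers genes of any level and spread, while 7 of the 10 genes were above the 90th percentile of spread in their class. Pairs of genes with a like spread were not compared. Egr1 followed Jun (0.96) and Dusp1 (0.93), while Fos followed Atf3 (0.94). These are descriptions over 12 arrays, which share RNA pools, hybridisation and normalization between genes.

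**Figure D5:**
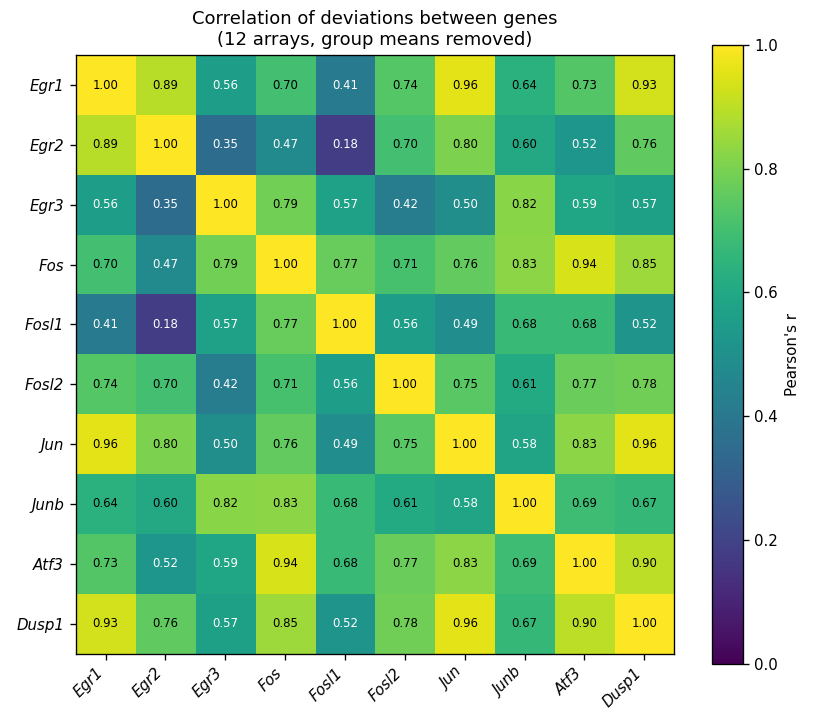
Pearson correlation between the deviations from group means of each pair of the 10 genes, over 12 arrays (colour scale from 0 to 1). All values are above 0, with the lowest, 0.181, for Egr2 and Fosl1.

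The genes that followed the mean deviation of the set most closely were Ccn1, a matricellular protein induced by serum (r = 0.973), Nr4a1, an orphan nuclear receptor of the early response (0.963), Cic, a repressor released by ERK signalling (0.953), Btg2, an antiproliferative early gene (0.949), and Smoc2 (0.946). They were taken from 8754 genes with a pooled SD of at least 0.15, over 12 arrays. With FSH/EGF against control, Nr4a1 was at -0.90 (limma adjusted p = 0.0651), Ccn1 at -0.68 (0.157) and Btg2 at 0.063 (0.906), none of them called. Nr4a1 passed as lower with only the groups compared (limma adjusted p = 0.0470), without the 40% dimmest rows (0.0403), with only rows of 1 symbol (0.0319) and after renewed quantile normalization (-1.12, 0.0277). It also passed without control array 3 (-1.12, 0.0339), GDF9 array 3 (-0.90, 0.0274) or FSH/EGF array 4 (-1.10, 0.0378), and Ccn1 without FSH/EGF array 4 (-0.96, 0.0487). Cic rose by 0.61 (0.00279). Smoc2 fell by 0.33 (0.0450), a call lost without control array 1, 2 or 4, GDF9 array 1 or 2, or FSH/EGF array 1, 2 or 3 (-0.33 to -0.27; 0.0510 to 0.110). Against GDF9, Nr4a1 fell by 1.20 (0.0215). When whole values rather than deviations were compared with the mean of the 10 scaled genes, the closest were the microRNA host probe sets annotated as Mir27a (r = 0.919) and Mir23a (0.883), Zbtb2 (0.902), Klf6 (0.896) and Ppp1r15a (0.894). None of these 5 passed the test in FSH/EGF minus control, with Mir23a nearest at 0.81 (0.0811; 0.98 and 0.0491 without control array 4; 0.0425 with only rows of 1 symbol).

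Of 23 other immediate early genes, 14 were above the 90th percentile of spread in their level class, or 60.9% against 10.0% of all genes. The same number, 14, correlated above 0.7 with the mean deviation of the set, against 2.72% of all genes. The oocyte markers were also widely spread, 11 of 15 above the 90th percentile, but 0 of 15 correlated above 0.7. Of the 11 stress genes, 7 were above the 90th percentile and 1 correlated above 0.7. Above 0.7 were also 4 of 13 other AP-1 and related bZIP subunits and 3 of 14 SRF, TCF and CREB activators. So were 2 of the 10 cumulus and granulosa markers. The EGR and NAB, MAP kinase, target gene, theca and stroma, endothelial and leukocyte lists held 0. All lists were chosen with earlier results of these data known.

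Other genes of the same pathways, taken as lists, moved with FSH/EGF to different degrees, where 36.8% of all genes were called against control. The lists were chosen with earlier results of these data known, so their counts and medians are a description and not a test. Both NAB corepressors of EGR proteins rose, Nab1 by 1.34 ± 0.13 and Nab2 by 1.20 ± 0.10, and Egr4 did not pass (-0.24). Of 13 other AP-1 and related bZIP subunits 3 rose and 1 fell, with Atf4 at 0.77, Maff at 0.39, Mafg at 0.36 and Maf at -0.85, and the list median was -0.02. Mafg did not pass after renewed quantile normalization (0.14, limma adjusted p = 0.176). Of 14 SRF, TCF and CREB activators 3 rose and 3 fell (median 0.08): Crem, which holds the inducible repressor ICER, rose by 1.34 ± 0.12 and Elk1, a TCF, by 0.59, while Srf fell by 0.64 and the CREB coactivator Crtc3 fell by 0.79. Among 13 measured genes of the MAP kinase cascade 8 rose and 1 fell (median 0.30), with Map2k3 at 1.69, Map2k1 at 0.98, Mapk9 at 0.80 and Rps6ka5, the kinase MSK1, at -1.75.

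The 23 other immediate early genes held 9 that rose and 3 that fell (median 0.39). Ier3 rose by 4.19 ± 0.16, Ier5 by 2.41 ± 0.21 and Klf10 by 1.73 ± 0.12, and Myc fell by 2.76 ± 0.21. Of 12 reported AP-1 or EGR target genes 6 rose and 1 fell (median 0.48), led by Timp1, a metalloprotease inhibitor, at 4.43, Plaur, the urokinase receptor, at 3.46, the hyaluronan receptor Cd44 at 2.997 and Hmox1 at 1.09. Of the 11 heat shock and stress genes 6 rose and 0 fell (median 0.44), with Hsph1 at 1.28, Hsp90aa1 at 0.84, Gadd45b at 0.75 and Hspa1a at 0.63. The call of Hspa1a was lost without control array 2 (0.57, limma adjusted p = 0.0833), control array 3 (0.56, 0.0909), FSH/EGF array 2 (0.49, 0.0957) or FSH/EGF array 4 (0.52, 0.0957). The median over all genes was -0.07, and these lists too were chosen with earlier results of these data known. Leaving out 1 array moved 5 of these counts by more than 1.5 times. The fallen AP-1 and bZIP subunits were 2 without control array 1 or FSH/EGF array 4, and the fallen MAP kinase genes were 2 without control array 1. Without GDF9 array 3, 5 SRF, TCF and CREB activators rose, and without FSH/EGF array 4, 5 immediate early genes fell. The fallen target genes were 0 without FSH/EGF array 2 and 2 without control array 4, GDF9 array 1 or GDF9 array 2. Scaling moved such counts too. After renewed quantile normalization 3 MAP kinase genes, 5 SRF, TCF and CREB activators and 2 AP-1 and bZIP subunits fell, and with equal array medians 0 target genes fell. With GDF9 against control, limma called 0 genes of each list.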

How the data were processed

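Log2 expression values of 12 arrays were used as the authors deposited them. The submitters' processing notes list RMA, Partek and GCOS, without versions or roles. The array's genome build is not given in the sources used here, nor is its annotation version. Of 35399 probe set rows, 21789 carried 1 gene symbol, 1621 several and 11989 none. The platform annotation used here can be old. A gene with several probe sets was represented by the one with the highest mean over the 12 arrays.

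Groups were compared with limma 3.58.1 in R 4.3.3, which fitted 1 mean for each group to the 12 arrays and moderated the variances. P-values were adjusted by Benjamini-Hochberg across the 35399 rows, and a gene was called at an adjusted p under 0.05. The 3 pairwise comparisons share groups. The model was tested on simulated data. The members, the gene lists and the marker lists were chosen with earlier results of these data known. The 12 lists held 152 genes, of which 137 were measured.

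Named genes are the 10 members, up to 4 called genes of each of 7 pathway lists by size of the FSH/EGF difference from control, and the 5 genes closest to the members' mean in deviations and in values. In all, 25 settings were tried as alternatives. Promoter windows came from RefSeq (GRCm38.p6) and were matched by symbol. Figures and summaries were made in Python 3.11.15. Arrays give no read depth.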

Additional observations from a re-analysis of the deposited data

Results flagged for a closer look

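Of 30 sets of 4 values, 1 for each gene and group, 4 had an array whose gap to its neighbour took up more of the range than Dixon's 95% critical value allows. Chance marks about 1 in 20 such sets. All 4 were FSH/EGF array 4, the highest of its group in each: Egr1 at 8.65 (the other 3 arrays at 8.26 to 8.29), Fos at 9.86 (8.42 to 8.54), Fosl2 at 9.20 (8.71 to 8.74) and Jun at 10.62 (9.98 to 10.08). The 4 genes were measured on the same array and do not count as separate observations.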

How the results depend on the processing

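Egr3, Egr2 and Fosl1 stayed higher with FSH/EGF than in control cultures, past the threshold, in all 25 settings. The count of genes called higher in FSH/EGF minus control, 4 in the report, was 3 without moderation of the variances and after renewed quantile normalization, 5 without control arrays 1 and 4 (Junb added), and ran from 3 to 4 with each array left out. The count called lower, 2 in the report, was 3 after renewed quantile normalization, with Fosl2 added, 1 without moderation and 0 without control arrays 1 and 4 or, a setting chosen after seeing the data, without control array 4 and FSH/EGF array 3, and ran from 0 to 2 with each array left out. In FSH/EGF minus GDF9 the count called higher, 3 in the report, was 2 without moderation, and ran from 2 to 3 with each array left out. The count called lower, also 2, was 1 without moderation and 1 without control array 4 and FSH/EGF array 3, and ran from 1 to 2 with each array left out.

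Differences that changed sign were all of genes that were not called. Jun in FSH/EGF minus control was 0.0065 with equal array medians, 0.14 without control arrays 1 and 4, 0.13 without control array 4 and FSH/EGF array 3, and -0.22 to 0.10 over single arrays left out. Junb was -0.037 after renewed quantile normalization, and Atf3 ran from -0.059 to 0.50. After that normalization Btg2 was -0.16 and Ppp1r15a -0.024, and with single arrays left out they ran from -0.21 to 0.30 and -0.12 to 0.22. Egr1 in GDF9 minus control was -0.0030 with array weights. Over single arrays left out, GDF9 minus control ran from -0.083 to 0.26 for Egr1, -0.032 to 0.19 for Egr3, -0.078 to 0.30 for Fos, -0.029 to 0.13 for Fosl1 and -0.20 to 0.26 for Atf3. In FSH/EGF minus GDF9, Fosl2 was 0.015 with equal array medians and 0.011 without control array 4 and FSH/EGF array 3, and ran from -0.15 to 0.072; Junb ran from -0.23 to 0.061 and Atf3 from -0.13 to 0.52. The cause was not tested.

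Nothing in the labels ties array numbers across groups. Over all rows, 6 of 12 same-numbered pairs had a correlation of deviations above 0.1 (range -0.389 to 0.221), and 3 of 12 arrays correlated best with their own number, so that the numbers were not taken to pair the samples. Over the 10 genes alone, 8 of the 12 pairs were above 0.1 (range -0.535 to 0.888): all pairs of numbers 3 and 4 (0.449 to 0.888), but not all of numbers 1 and 2. With the replicate number as a block, limma called 4 of the 10 genes higher and 2 lower in both FSH/EGF comparisons, Dusp1 being added against GDF9 (1.09, limma adjusted p = 0.00118; above 0 in 4 of 4 same-numbered differences). The block also called Ccn1 (-0.68, limma adjusted p = 0.00508) and Nr4a1 (-0.90, 0.00820) lower than control, and Mir27a (0.72, 0.00900) and Mir23a (0.81, 0.00155) higher.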
